A study of Homo sapiens with 12 samples.

Results

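A set of 10 genes of the cytosolic heat shock response was followed through 12 RNA-seq libraries: the transcription factor genes HSF1 and HSF2, the chaperone genes HSP90AA1 and HSP90AB1, the co-chaperone genes AHSA1, CHORDC1, STIP1, FKBP4 and PTGES3, and STUB1, which encodes a ubiquitin ligase that binds chaperones. They were taken by gene name from a deposited table of 58676 genes, and each name matched 1 row. The libraries were made from A549 cells, a long-established line derived from a human lung carcinoma. The study compared a control line, which the labels call Control1, with the lines NFE2L1 KO1 and NFE2L1 KO2, in which NFE2L1 was knocked out. The product of NFE2L1 is a factor through which cells raise proteasome gene transcription after proteasome inhibition. Each line received DMSO (vehicle) or bortezomib, a proteasome inhibitor, at 200 nM for 4 h, and each of the 6 groups had 2 libraries. Whether a KO line is 1 clone, how the knockout was made and whether the 2 libraries of a group came from separate cultures are not given in the sources used here, so p-values measure only the spread between libraries, which may be technical.

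HSF1 is the main factor of the heat shock response. In unstressed cells it is held inactive in complexes with chaperones, and when unfolded protein accumulates it forms trimers and binds heat shock elements in the promoters of chaperone genes. HSF2 is a related factor that can join HSF1 in mixed trimers. HSP90 is an abundant ATP-dependent chaperone of kinases, steroid receptors and other client proteins, and in the cytosol it is encoded by HSP90AA1 (HSP90 alpha, the more inducible form) and HSP90AB1 (HSP90 beta, the more constitutive form). Co-chaperones set the pace and direction of its cycle. STIP1 brings clients from HSP70 to HSP90, AHSA1 stimulates the ATPase, PTGES3 (p23) holds the closed state, FKBP4 is an immunophilin of steroid receptor complexes, CHORDC1 is a zinc-binding partner of HSP90, and STUB1 (CHIP) ubiquitinates bound clients.

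The libraries held 13211608 to 23819258 reads assigned to genes, and the 10 genes had between 193 (HSF2) and 243683 (HSP90AA1) reads in a library. Values are FPKM, that is, fragments per kilobase of gene scaled to the reads assigned to genes. An order of levels between genes therefore depends on the gene lengths in the file, such as 10655 bases for CHORDC1 and 2316 for STUB1. The titles carry the suffix R2 in 1 library of each group, and R1 (KO lines) or no number (control line) in the other. The 6 R2 libraries had 12.3% to 19.3% of their reads on mitochondrial genes, against 5.44% to 6.80% in the other 6. All 10 genes were lower in R2 than in its partner in 6 of 6 groups, with median ratios from 0.452 (PTGES3) to 0.821 (HSF1). The median log2 difference of R2 from its partner over all genes was also negative in each group. It ran from -0.340 (control vehicle) to -0.114 (KO2 bortezomib). The direction was thus not particular to the 10 genes. Results are therefore also given within a suffix. NFE2L1 itself read 72.7 (unnumbered) and 151 (R2) FPKM in the control line with vehicle, 8.45 and 14.8 in KO1 and 18.6 and 33.6 in KO2, so the KO libraries were lower within each suffix. All 10 epithelial and A549 markers listed were above 0 in every library. Of the markers of blood, endothelium and fibroblasts, most were at or near 0, except COL1A1 at 1.42 to 23.3 FPKM and CD14 at up to 3.63.

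In vehicle the 2 HSP90 genes were the highest of the set and HSF2 was the lowest. By median FPKM over the 6 vehicle libraries the order was HSP90AB1 (587), HSP90AA1 (382), PTGES3 (115), STIP1 (68.4), AHSA1 (42.1), FKBP4 (28.4), HSF1 (18.2), STUB1 (10.1), CHORDC1 (9.53) and HSF2 (4.84). The ranges of most neighbours in this order overlapped, for example 426 to 759.8 for HSP90AB1 and 302 to 571 for HSP90AA1. HSP90AA1 and PTGES3 (59.5 to 195) did not overlap, nor did HSF1 (13.7 to 23.4) and STUB1 (7.26 to 12.8), or CHORDC1 (7.07 to 11.8) and HSF2 (3.82 to 6.04). With bortezomib HSP90AA1 came first (median 1557), ahead of HSP90AB1 (1188), and CHORDC1 moved past HSF1 and STUB1 to the seventh place (38.1). Together the 10 genes took 0.373% to 0.707% of assigned reads in the vehicle libraries and 0.787% to 2.22% in the bortezomib libraries. The last 2 ranges do not overlap.

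**Figure D1:**
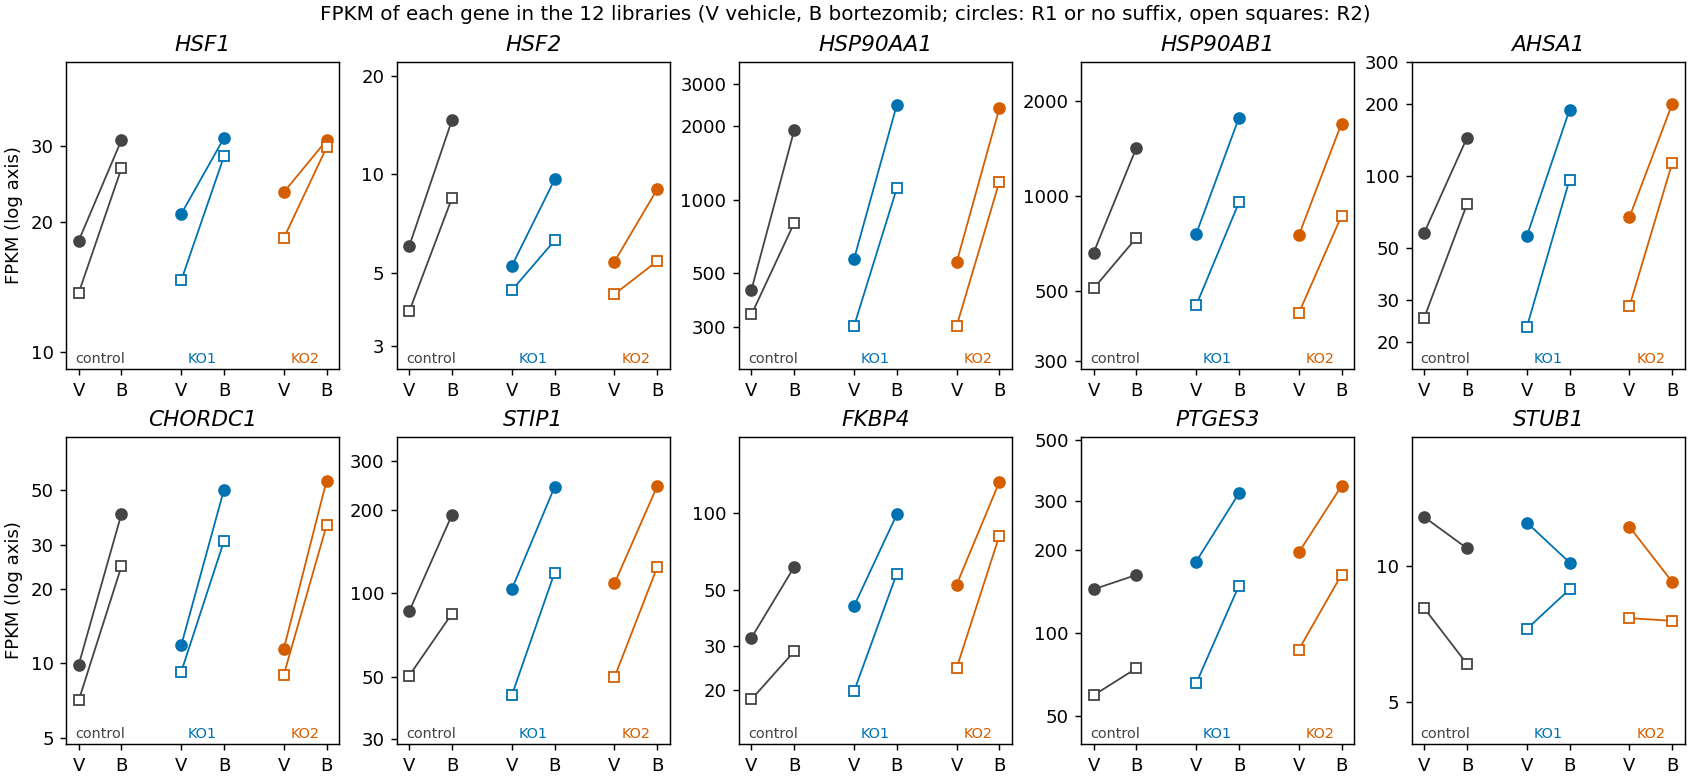
FPKM (log axis) of each gene in vehicle (V) and bortezomib (B), with a line joining the libraries of 1 cell line that share a title suffix. Every line rises for all genes except STUB1, where 5 of 6 fall, and the open squares (R2) lie below the circles in all groups.

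Bortezomib was followed by higher levels of 9 of the 10 genes. Libraries were paired where they shared a line and a suffix. HSF1, HSF2, both HSP90 genes and the 5 co-chaperone genes were higher with bortezomib than with vehicle in 6 of 6 pairs. STUB1 was lower in 5 of 6. The share of all genes that rose in 6 of 6 pairs was not computed. Of the 12194 genes tested below, 49.3% had a mean bortezomib change above 0. The median ratio over the pairs was 4.10 for HSP90AA1, 4.05 for CHORDC1, 3.20 for AHSA1, 2.42 for FKBP4, 2.29 for STIP1, 2.13 for HSP90AB1, 1.75 for HSF2 and for PTGES3, and 1.67 for HSF1. HSP90AA1, CHORDC1 and AHSA1 thus had medians above 3-fold, and the factors and PTGES3 changed least of the 9 by median. Single pairs overlapped, with HSP90AA1 at 2.38 in control R2 and FKBP4 at 3.33 in KO2 R2.

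The test was limma on log2(FPKM + 1) over the 12194 genes whose FPKM averaged 1 or more, and a gene is called where its Benjamini-Hochberg adjusted p is under 0.05. Because the difference between suffixes recurred in every group, a fit with the suffix as a replicate block is given beside the fit without it. All 10 genes passed the filter on low values. For the mean bortezomib change over the 3 lines, the fit without the block called 4 of the 10 higher (HSP90AA1, CHORDC1, AHSA1 and HSF1), where 4.85% of all genes tested were called higher. The fit with the block called 9 of the 10 higher, where 27% of all genes were, and STUB1 was called in neither. The median log2 change was 1.09 over the 10 genes and -0.01 over all genes tested. Leaving out 1 library at a time, the count without the block was 1 to 4. It was 2 without the control vehicle R2, the control bortezomib unnumbered, the KO1 vehicle R2, the KO1 bortezomib R1 or the KO2 vehicle R2 library, and 1 (CHORDC1) without the KO2 bortezomib R1 library. With the block it was 9 in all 12 cases. HSF1 lost its call without the block in each of these 12 cases.

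**Figure D2:**
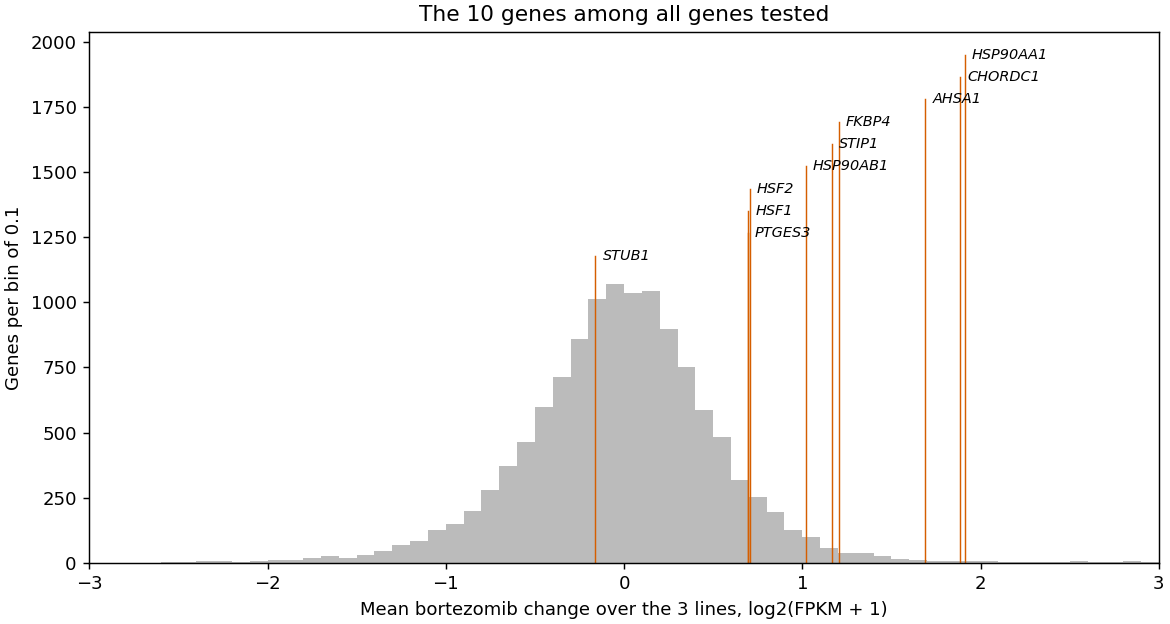
Histogram of the mean bortezomib change over the 3 lines, in log2(FPKM + 1), for the genes tested (bars, genes per bin of 0.1; the axis is limited to changes between -3 and 3), with the 10 genes marked by lines. The lines of 9 genes lie on the right shoulder and tail, from 0.69 (PTGES3) to 1.91 (HSP90AA1), and STUB1 lies near the middle at -0.16.

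HSF1 (ENSG00000185122, 8:144291591-144314722, plus strand) read 18.1 and 13.7 FPKM in control vehicle (unnumbered, then R2) and 30.9 and 26.6 in control bortezomib. In KO1 it read 20.9 and 14.6 with vehicle (R1, then R2) and 31.3 and 28.4 with bortezomib, and in KO2 23.4 and 18.3 against 30.9 and 29.8. The bortezomib libraries thus lay between 26.6 and 31.3 in all 3 lines and did not overlap the vehicle libraries, which ended at 23.4. How many of all genes separate in this way was not counted, here or for the genes below. The mean log2 change was 0.70 (SE 0.20, limma adjusted p 0.0486 without the block; SE 0.09, adjusted p 0.000182 with it). Within each line the change was called with the block alone: 0.83 in control (adjusted p 0.00394), 0.74 in KO1 (0.00771) and 0.53 in KO2 (0.0314). An exon of DGAT1 (8.09 to 21.0 FPKM) overlaps HSF1 on the other strand, and with no strand rule stated for the counts, reads there cannot be told apart.

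HSF2 (ENSG00000025156, 6:122399546-122433119, plus strand) had the lowest median of the 10 under either treatment, although STUB1 was lower in both control libraries with bortezomib. The fitted change of HSF2 was larger in the control line than in either KO line, and the test of that difference was not passed (limma adjusted p 0.324 with the block). It read 6.04 and 3.82 FPKM in control vehicle and 14.7 and 8.47 in control bortezomib. In KO1 it read 5.25 and 4.43 against 9.64 and 6.27, and in KO2 5.41 and 4.30 against 8.997 and 5.43. The ratio was 2.42 and 2.22 in the control pairs and 1.26 to 1.83 in the 4 KO pairs, so every control pair lay above every KO pair. Over the lines the mean log2 change was 0.71 (limma, adjusted p 0.0625 without the block and 0.000156 with it). By line it was 1.06 in control (adjusted p 0.00113 with the block), 0.59 in KO1 (0.0182) and 0.46 in KO2 (0.0482).

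The list of further heat shock factor genes and regulators had 4 members. Of these, HSF5 was listed at 0 in all 12 libraries and HSF2BP stayed under the filter. HSF4 (2.35 to 9.85 FPKM) and HSBP1, which encodes a negative regulator of HSF1 trimers (3.80 to 12.3 FPKM), were tested, and neither was called with bortezomib in any line or in the mean, with or without the block. Their mean log2 changes were 0.26 and 0.07.

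HSP90AA1 (ENSG00000080824, 14:102080738-102139699, minus strand) read 427 and 337 FPKM in control vehicle and 1930.3 and 803 in control bortezomib. In KO1 it read 571 and 302 against 2450.15 and 1114, and in KO2 552 and 303 against 2371 and 1185. Every bortezomib library was above every vehicle library. Its mean log2 change was 1.91 (limma, SE 0.40, adjusted p 0.0153 without the block; SE 0.12, adjusted p 4.65e-06 with it), which 0.361% of the genes tested exceeded. HSP90AB1 (ENSG00000096384, 6:44246166-44253888, plus strand) read 663 and 511 FPKM in control vehicle and 1421 and 738 in control bortezomib, 759.8 and 451 against 1769.6 and 955 in KO1, and 752 and 426 against 1697 and 866 in KO2. Here the groups overlapped, since the R2 control library with bortezomib (738) lay below 2 KO vehicle libraries. HSP90AB1 rose by a mean log2 change of 1.02, which was called with the block (limma, adjusted p 4.07e-05) but not without it (0.102). WDR20 (1.87 to 4.61 FPKM) overlaps HSP90AA1 on the other strand at a level far below it. How reads that fit both HSP90 genes were counted is not given in the sources used here. Rows named as pseudogenes of the set reached at most 0.989% of the FPKM of the parent gene.

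The balance of the pair moved with bortezomib. The ratio of HSP90AA1 to HSP90AB1 FPKM was 0.644 to 0.751 (median 0.690) in the 6 vehicle libraries and 1.09 to 1.40 (median 1.36) in the 6 bortezomib libraries. The ranges did not overlap, and the ratio crossed 1 in every line and for both suffixes. Both values come from 1 library each, so a factor that scales a whole library leaves this ratio as it is. Crossing 1 depends on the gene lengths in the file, 5248 bases for HSP90AA1 and 2980 for HSP90AB1. In reads HSP90AA1 was already above HSP90AB1 in all 6 vehicle libraries, for example 53335 against 47041 in the unnumbered control library. The lengths are the same in every library, so the shift between treatments does not depend on them. The corresponding ratio of HSF1 to HSF2 was 2.99 to 4.33 with vehicle and 2.11 to 5.48 with bortezomib, ranges that overlapped.

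**Figure D3:**
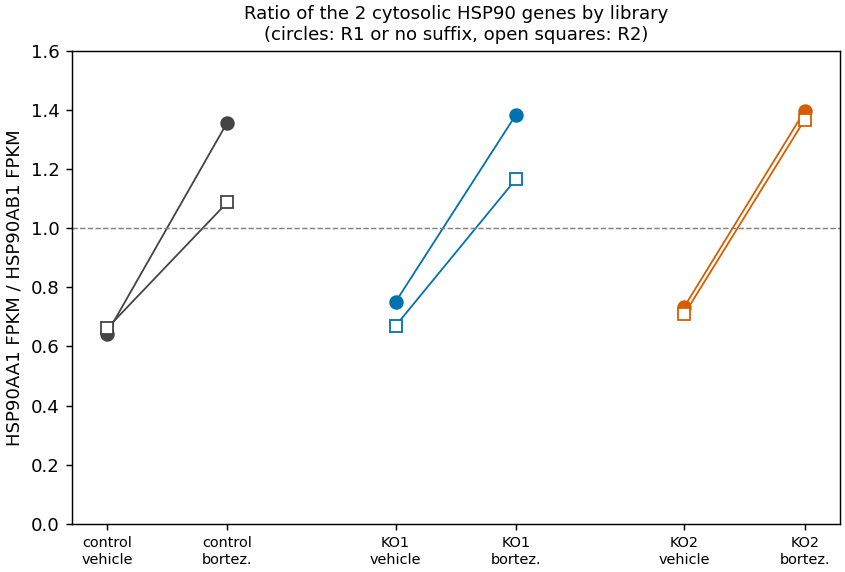
Ratio of HSP90AA1 to HSP90AB1 FPKM in each library, by line and treatment, with lines joining libraries that share a suffix. All 6 vehicle libraries are below 1 (dashed) and all 6 bortezomib libraries are above it.

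Heat shock elements are built of alternating 5-base units, and the RefSeq promoter windows (GRCh38.p14, 250 bases before to 50 after a start) of the set were searched for them. An element was 2 units (GAANNTTC or TTCNNGAA) or 3 (GAANNTTCNNGAA or TTCNNGAANNTTC, which contain the shorter ones), and each pattern reads the same on both strands or is the other's complement. The table had windows for 7 of the 10 genes, 13 in all. At least 3 units in a row were found for 3 of the 7 genes, in 1 of the 2 windows of HSP90AA1, 1 of the 3 of HSP90AB1 and the 1 of CHORDC1. That is 3 of 13 windows, against 0.490% of the 35116 windows in the table, which has 27305 genes (0.608% of genes). STIP1 had a 2-unit element, which 16.2% of genes have. The stretches with 3 or more units are printed below 5′ to 3′ on the gene's strand, with the units in capitals, because they belong to the 2 HSP90 genes and to the co-chaperone with the highest rise.
HSP90AA1 (chr14:102087104-102087133, minus strand; elements 88 to 76 and 68 to 61 bases before the start at 102087044): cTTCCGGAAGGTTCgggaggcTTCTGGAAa
HSP90AB1 (chr6:44247693-44247865, plus strand; elements 165 to 153 and 112 to 100 bases before the start at 44247943): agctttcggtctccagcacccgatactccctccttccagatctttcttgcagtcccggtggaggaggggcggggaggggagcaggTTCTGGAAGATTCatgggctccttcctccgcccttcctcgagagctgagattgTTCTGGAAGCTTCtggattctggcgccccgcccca
CHORDC1 (chr11:90223083-90223112, minus strand; 60 to 38 bases before the start at 90223049): ccgGAAAATTCGCGAAGGTTCCTGAAacgc
CHORDC1 carries 5 units in a row, as 4 of the 35116 windows do. HSP90AB1 carries the 3-unit element in 2 places, and the second run of capitals in HSP90AA1 has 2 units. The HSP90AA1 and CHORDC1 stretches lie in exons of other annotated transcripts (GENCODE 29), while no annotated exon of that strand covers the HSP90AB1 stretch. A match is a description of the letters and says nothing on binding. The windows of AHSA1, PTGES3 and HSF2 held none of these patterns.

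AHSA1 (ENSG00000100591, 14:77457870-77469474, plus strand), the activator of the HSP90 ATPase, read 57.8 and 25.4 FPKM in control vehicle and 145 and 76.1 in control bortezomib. In KO1 it read 55.9 and 23.2 against 190.2 and 96.6, and in KO2 67.1 and 28.3 against 201 and 113. The bortezomib libraries did not overlap the vehicle libraries. AHSA1 rose by a mean log2 change of 1.69 (limma, adjusted p 0.0250 without the block and 2.26e-06 with it). VIPAS39 (5.01 to 12.6 FPKM) overlaps AHSA1 on the other strand.

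CHORDC1 (ENSG00000110172, 11:90201160-90223364, minus strand) read 9.84 and 7.07 FPKM in control vehicle and 40.1 and 24.6 in control bortezomib, 11.8 and 9.23 against 50.4 and 31.2 in KO1, and 11.4 and 8.99 against 54.7 and 36.1 in KO2. The bortezomib libraries did not overlap the vehicle libraries, as for AHSA1. The 6 ratios of bortezomib to vehicle for CHORDC1, 3.38 to 4.79, were the most even among the 3 genes that rose most. Over the 3 lines the log2 change averaged 1.88 (limma, SE 0.24, adjusted p 0.00181 without the block; SE 0.09, adjusted p 1.08e-06 with it). It was called without the block in all 12 cases with 1 library left out.

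STIP1 (ENSG00000168439, 11:64185272-64204543, plus strand), the adaptor between HSP70 and HSP90, read 86.3 and 50.6 FPKM in control vehicle and 192 and 84.6 in control bortezomib, 104 and 43.0 against 242 and 119 in KO1, and 108 and 49.8 against 243 and 124 in KO2. The R2 control library with bortezomib overlapped the vehicle libraries, as it did for HSP90AB1. Its mean log2 change was 1.17, called with the block (limma, adjusted p 1.26e-05) and not without it (0.0926).

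FKBP4 (ENSG00000004478, 12:2794953-2805423, plus strand) read 32.3 and 18.4 FPKM in control vehicle and 61.5 and 28.5 in control bortezomib. In KO1 it read 43.0 and 19.8 against 99.0 and 57.8, and in KO2 52.3 and 24.5 against 133 and 81.7. The 2 control bortezomib libraries were thus the lower ones of their suffix, and the R2 one overlapped the vehicle libraries. The mean log2 change over the lines was 1.20, called with the block (limma, adjusted p 1.17e-05) and not without it (0.0553). By line it was 0.76 in control (adjusted p 0.00755 with the block), 1.34 in KO1 (0.00071) and 1.51 in KO2 (0.000395).

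PTGES3 (ENSG00000110958, 12:56663341-56688408, minus strand), the p23 co-chaperone, read 144 and 59.5 FPKM in control vehicle and 162 and 74.5 in control bortezomib. In KO1 it read 181 and 65.8 against 319.7 and 148, and in KO2 195 and 87.0 against 340.2 and 162. The control ratios of bortezomib to vehicle, 1.13 and 1.25, were below all 4 KO ratios, which were 1.74 to 2.26. In control the log2 change was 0.24 (95% interval with the block -0.10 to 0.59, limma adjusted p 0.245), and it is the only one of the 9 risers whose change in a line was not called with the block. It was called with the block in KO1 (0.99, adjusted p 0.00229) and KO2 (0.85, adjusted p 0.00462). The mean over the lines was 0.69 (adjusted p 0.362 without the block and 0.000198 with it).

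STUB1 (ENSG00000103266, 16:680224-682870, plus strand) read 12.8 and 8.06 FPKM in control vehicle and 10.9 and 6.08 in control bortezomib, 12.4 and 7.26 against 10.2 and 8.88 in KO1, and 12.2 and 7.67 against 9.22 and 7.56 in KO2. The groups overlapped in each line, and 1 of the 6 pairs, KO1 R2, was higher with bortezomib. The mean log2 change was -0.16 (95% interval with the block -0.37 to 0.05, limma adjusted p 0.173; 0.722 without it). JMJD8 (6.71 to 15.9 FPKM) overlaps STUB1 on the other strand at a like level, so the STUB1 values are uncertain.

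**Figure D4:**
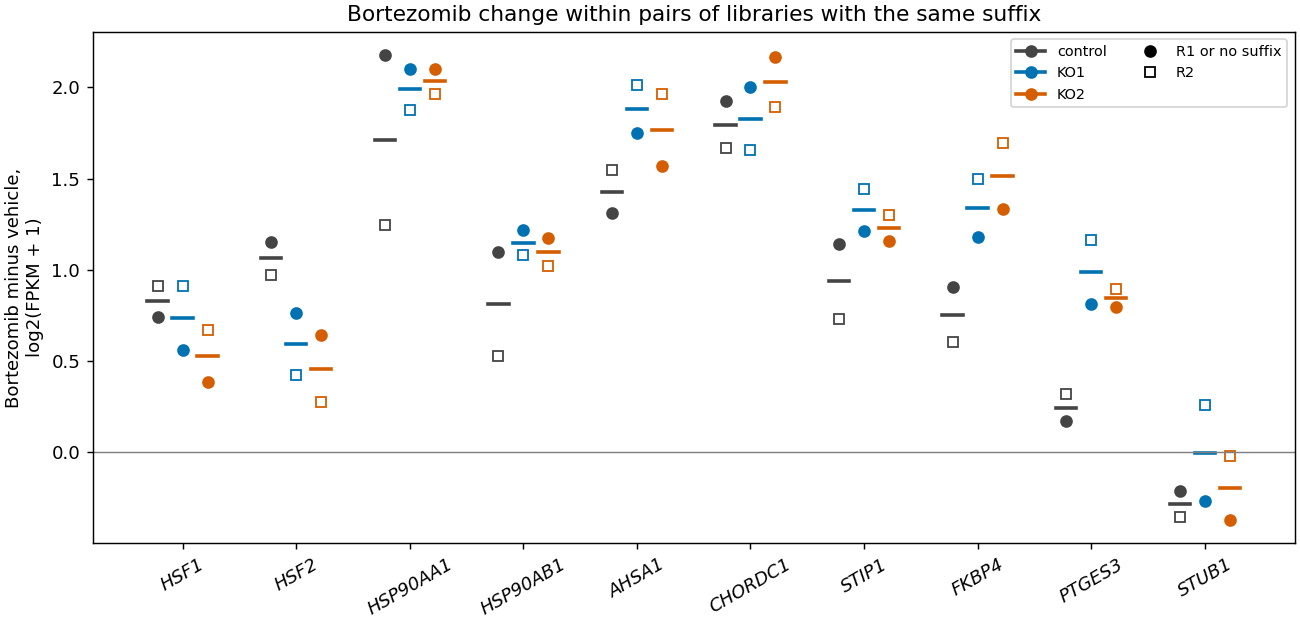
Difference in log2(FPKM + 1) between bortezomib and vehicle within each pair of libraries of the same line and suffix (points) and its mean per line (bars). All pairs lie above 0 except 5 of the 6 for STUB1. For PTGES3 and FKBP4 the control pairs lie below the KO pairs, as they narrowly do for STIP1 and AHSA1. For HSF2 the control pairs lie above the KO pairs.

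Within single lines, the fit without the block called none of the 10 genes in control, KO1 or KO2, where 0.23%, 0.156% and 0.172% of all genes were called higher. At an unadjusted p under 0.05 it had 4, 3 and 4 of them, beside 1498, 1153 and 1169 of the 12194 genes tested. With the block, 8 were called higher in control, 9 in KO1 and 9 in KO2, where 16.1%, 13.9% and 12.7% of all genes were. Several of these blocked calls rest on single libraries, and the libraries left out are named next with the limma adjusted p. In control, FKBP4 (0.097) and HSP90AB1 (0.088 to 0.091) were no longer called without either unnumbered library, nor HSF1 (0.059) without either R2 library. In KO1, HSF2 was lost without the vehicle R1 (0.098), bortezomib R1 (0.151) or bortezomib R2 (0.068) library, and HSF1 without the vehicle R2 (0.051) or bortezomib R2 (0.088) library. In KO2, HSF2 was called only without either KO1 vehicle library (2 of 12 cases) and HSF1 in 6 of 12 cases, and PTGES3 was lost without the KO2 vehicle R1 (0.062) or R2 (0.051) library. HSP90AA1, AHSA1, CHORDC1 and STIP1 were called with the block in every line in all 12 cases.

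Other genes of the same machinery, from lists, were set beside these. Of 23 further HSP90 paralog and co-chaperone genes, 20 passed the filter. Without the block none was called with bortezomib in a line or in the mean. With the block 7 were called higher in control, 8 in KO1, 7 in KO2 and 12 in the mean over the lines, none lower, where 16.1%, 13.9%, 12.7% and 27% of all genes were called higher. The median of their mean log2 changes was 0.28, against -0.01 over all genes. The 3 with the largest mean change were CACYBP, an adaptor in ubiquitin ligase complexes (1.30), DNAJC7, a co-chaperone with tetratricopeptide repeats (0.91), and PPID, the cyclophilin partner of HSP90 (0.83). CACYBP read 32.0 and 14.3 FPKM in control vehicle and 73.8 and 26.1 in control bortezomib, 36.9 and 12.6 against 94.9 and 36.8 in KO1, and 37.5 and 15.8 against 99.8 and 50.6 in KO2.

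All 14 listed heat shock target genes outside the set were tested. Without the block 2 were called higher in each line and 10 in the mean, and with the block 11 in control, 14 in KO1, 14 in KO2 and 14 in the mean, none lower in either. Of all genes, the fit without the block called 0.23% higher in control, 0.156% in KO1, 0.172% in KO2 and 4.85% in the mean, and the blocked fit called 16.1%, 13.9%, 12.7% and 27%. The median of their mean log2 changes was 1.96. The largest were those of HSPA1B (4.59) and HSPA1A (4.54), the neighbouring and nearly identical genes of inducible HSP70, whose reads may be split between them. HSPA1A read 41.5 to 68.8 FPKM in the 6 vehicle libraries and 639 to 2000.4 in the 6 bortezomib libraries.

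With vehicle, FKBP4, PTGES3, CHORDC1 and HSF1 were higher in the KO lines than in control and STUB1 lower, each in 4 of 4 matched libraries, but none passed the test. In limma none of the 10 was called for the mean of the KO lines against control, with or without the block, where 0.344% and 6.18% of all genes were called in either direction. With the libraries matched by suffix (R1 to the unnumbered control, R2 to R2), FKBP4 was higher in 4 of 4 KO libraries at ratios of 1.08 to 1.62, PTGES3 at 1.11 to 1.46, CHORDC1 at 1.16 to 1.31 and HSF1 at 1.07 to 1.34, and STUB1 was lower in 4 of 4 at 0.901 to 0.972. FKBP4 had the smallest p (log2 difference 0.41, 95% interval with the block 0.02 to 0.79, limma adjusted p 0.205). For STUB1 the fit with the block gave a log2 difference of 0.05 (limma adjusted p 0.902), the opposite sign to its matched ratios. HSP90AA1, HSP90AB1, AHSA1 and STIP1 were higher in 2 of 4 and lower in 2. The share of all genes with a 4 of 4 pattern was not computed. Of all genes tested, 55.8% had a higher fitted mean in the KO lines without the block and 56.8% with it. Both KO lines are divided by the same control library of each suffix, so the 4 ratios of a gene are not independent.

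Under bortezomib FKBP4 and PTGES3 were higher in the KO lines than in control, and HSF2 lower, each in 4 of 4 matched libraries. The share of all genes with such a 4 of 4 pattern was not computed. Of all genes tested, 56.2% had a higher fitted mean in the KO lines without the block and 57.3% with it. For FKBP4 the KO1 ratios were 1.61 (R1) and 2.03 (R2) and the KO2 ratios 2.17 and 2.86. Those of PTGES3 were 1.97 and 1.99 for KO1, with 2.10 and 2.18 for KO2. HSF2 had ratios of 0.658 and 0.741 for KO1, with 0.614 and 0.641 for KO2. HSP90AA1 (1.23 to 1.48), HSP90AB1 (1.17 to 1.29), AHSA1 (1.27 to 1.49), CHORDC1 (1.25 to 1.47) and STIP1 (1.26 to 1.47) were also higher in 4 of 4, at smaller ratios. HSF1 stayed within 0.9996 to 1.12. As with vehicle, the KO lines share the control library of each suffix, so the 4 ratios of a gene are not independent.

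Without the block none of the 10 was called in this comparison, where 0.164% of all genes were called in either direction. With the block 2 were called, both higher, where 7.66% of all genes were called in either direction and 3.9% higher: FKBP4 (log2 difference 1.08, 95% interval 0.70 to 1.46, limma adjusted p 0.00764) and PTGES3 (1.03, 0.67 to 1.40, adjusted p 0.00750). HSF2 had a difference of -0.43 (adjusted p 0.141) and was not called in this fit. With the unnumbered libraries joined to R1 in the block, the same matching as in the ratios above, it was called lower (-0.54, adjusted p 0.0260). FKBP4 and PTGES3 were called higher in that joined block too (limma adjusted p 0.00107 for each). Their calls given first came from the block by suffix, where the unnumbered libraries have a level of their own. In that block R1 occurs only in the KO lines and no number only in control. The comparison there is tied mainly through the R2 libraries. Both calls were lost without the control bortezomib R2 library (adjusted p 0.195 for FKBP4 and 0.117 for PTGES3) or without the KO1 bortezomib R2 library (0.0537 and 0.0542). FKBP4 and PTGES3 were called in 10 of 12 cases with 1 library left out.

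**Figure D5:**
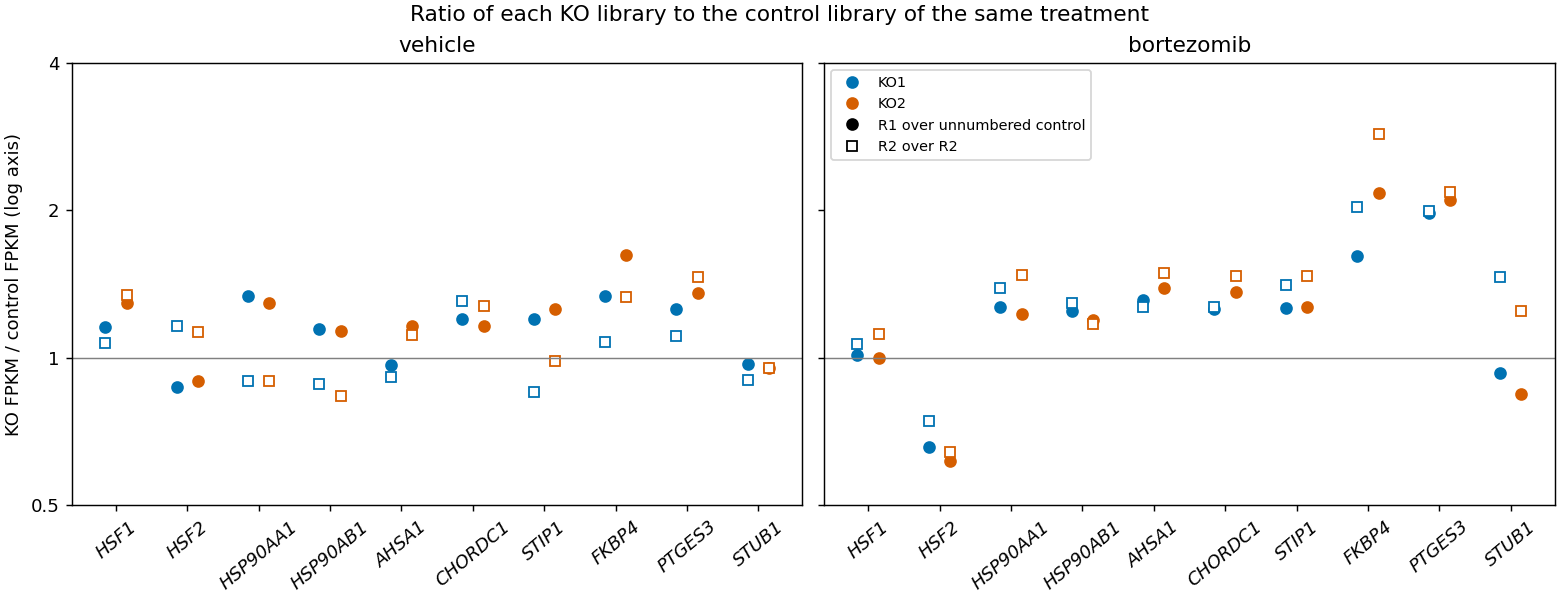
Ratio of FPKM (log axis) of each KO library to the control library with the same treatment, R1 over the unnumbered control (circles) or R2 over R2 (open squares). With bortezomib FKBP4 and PTGES3 lie at 1.61 to 2.86 and HSF2 at 0.614 to 0.741, while with vehicle the ratios lie between 0.835 and 1.62.

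The test of whether the bortezomib change differed between the KO lines and control called 0 of 12194 genes in limma, both without the block (115 genes at an unadjusted p under 0.05) and with it (1305 genes; smallest adjusted p 0.0635). The fit without a filter on low values called 2 genes higher and 5 lower of 32192, and voom on recovered reads with the block called 41 higher and 82 lower of 12194, none of them among the 10 (voom adjusted p 0.121 for PTGES3, 0.139 for FKBP4 and 0.339 for HSF2). Of the 10 genes, 3 had an unadjusted p under 0.05 with the block and none without it. They were PTGES3 (log2 difference of the changes 0.67, 95% interval 0.25 to 1.09, adjusted p 0.225), FKBP4 (0.67, 0.23 to 1.11, adjusted p 0.247) and HSF2 (-0.54, -0.95 to -0.12, adjusted p 0.324). For the other 7 the difference lay between -0.20 (HSF1) and 0.40 (AHSA1). The comparisons of KO with control under bortezomib and of bortezomib with vehicle in control use the same control bortezomib libraries.

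The HSP90 and co-chaperone genes, which all rose with bortezomib, were correlated over the 12 libraries. After the mean of the R2 libraries and the mean of the others were each subtracted from log2(FPKM + 1), Pearson's r over the 12 libraries among the 7 HSP90 and co-chaperone genes (21 pairs) was 0.75 to 0.99, median 0.95. HSF1 had r of 0.77 (PTGES3) to 0.96 (AHSA1) with these 7, and HSF2 0.26 (PTGES3) to 0.80 (CHORDC1), while STUB1 was negative with each. The points share their library, its depth and the treatment. Treatment means were not subtracted, so these r values in part restate the rise with bortezomib. No r among other genes that rose with bortezomib is set beside these. Outside the set, the genes most like HSP90AA1 were HSPH1 (r 0.996) and HSPA1A (0.995), both chaperone genes. Those most like STIP1 were DNAJA1 (0.998), an HSP40 gene, and INPP5A (0.996), and those most like AHSA1 were DNAJB6 (0.997), another HSP40 gene, and C11orf84 (0.993). The nearest genes to CHORDC1 were FXR1 (0.996) and PPP1R15A (0.995), to HSP90AB1 IL17RA and HSPH1 (both 0.986), to HSF1 OTUD5 and ZNF282 (both 0.989), to HSF2 TNFSF9 (0.989) and LRRC37B (0.981), and to STUB1 VPS9D1-AS1 (0.949) and ETS2 (0.921). FKBP4 and PTGES3 had other neighbours, BBC3 (0.977) and RALY (0.974) for FKBP4, and RNF41 (0.984) and USP53 (0.983) for PTGES3.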

How the data were processed

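The authors deposited FPKM for 58676 genes, 1 column per library, with gene lengths in the file. The submitters' processing notes name CASAVA, STAR 2.5, HTSeq 0.6.1, DESeq2 and hg19. The file's gene IDs were all in GENCODE 29 (GRCh38), and 95.2% of positions, those of the 10 genes included, are the GRCh38 ones there, so coordinates are given as GRCh38. The strand setting is not given in the sources used here. FPKM multiplied by length came in whole multiples of what 1 read is worth in each library (within 0.1 read for 100% of values), which gave the reads and the depth.

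Groups came from the labels alone. The main fit was limma 3.58.1 (R 4.3.3; lmFit, contrasts.fit, eBayes with trend) on log2(FPKM + 1), with 1 mean per group, all 12 libraries, no block, and the 12194 genes that averaged an FPKM of 1 or more. This scale understates changes of low genes. With 2 libraries a group, no permutation test per gene was run. R2 minus its partner correlated across genes between groups (r 0.696 to 0.890, 15 of 15 pairs over 0.1), so the suffixes pair the libraries, and the blocked fit is printed where it changes a call. The unnumbered control libraries had a level of their own in that block. The script was tested on simulated data. Alternatives were other pseudocounts, filters and scalings, no trend, 2 blocks, voom on recovered reads and leaving out each library. Leaving out libraries in the blocked fit was chosen after seeing the data. Named genes were the 10, NFE2L1, the 3 listed genes with the largest mean change per list, and the 2 genes most alike per member; 1 listed gene is not reported here. COL1A1 and CD14 were named after their values were seen. The genes and lists were chosen with earlier results of these data known. Python 3.11.15 with pandas 2.3.3 read the table.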

Additional observations from a re-analysis of the deposited data

How the results depend on the processing

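The block decided most calls. Without it 0 of the 10 genes were called with bortezomib in control, KO1 and KO2 and 4 in the mean over the lines; with the replicate block by suffix the counts were 8, 9, 9 and 9, as they were with the unnumbered libraries joined to R1 and with voom on recovered reads plus the block. Quantile normalization and leaving out mitochondrial genes each gave 1 in control and 1 in KO2. No filter, and rescaling to a common sum, each gave 2 in the mean, and leaving out 1 library gave 1 to 4. For KO against control with bortezomib the count was 0, but 2 with the block, 3 with those libraries joined to R1 (HSF2 being the third) and 2 with voom plus the block; with 1 library left out of the blocked fit it was 0 to 2. With 1 library left out, the change of PTGES3 in control ran from -0.38 (without the vehicle R2 library) to 0.87, and was -0.31 without the unnumbered bortezomib library. Its KO difference with vehicle ran from -0.27 (without the control vehicle R2 library) to 0.99. For the 10 genes the block changed no call of a KO difference with vehicle or of the interaction. Over all genes the interaction had 0 calls, but 41 higher and 82 lower with voom plus the block, and 2 and 5 with no filter. Why these values moved was not tested. With 2 libraries a group, a leave-one-out group of 1 is assumed to vary like the others.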
